A study of Mus musculus with 4 samples.

Results

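SOX2 was mapped on the chromatin of the mouse cortex, and the regions described here are those that lie in the interior of genes of ordinary length. Peaks of the 3 immunoprecipitated (IP) libraries that shared at least 1 bp were merged in chains. A merged region was kept where all 3 libraries had a peak (called reproducible, 9334 of 27083 merged regions, 34.5%, a share that the rule itself sets). It counted as a member where its centre lay inside a protein-coding gene, over 1 kb from either end of every protein-coding gene, and where the longest gene holding it spanned under 200 kb. This gave 2617 regions of the 9334 reproducible ones, in 1838 genes. The mice were wild-type C57BL/6 males, aged 2 months, and cortex was taken with no treatment or gene deletion named for any sample. The same description holds for the 3 IP libraries and the 1 input library of unselected chromatin. A label field that names SOX2 as a transduced factor stands on all 4 samples and does not match the wild-type description. Nothing in the labels ties the IP libraries to separate mice, and p-values below then measure only the spread between these samples, which may be technical.

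SOX2 belongs to the SOX family of transcription factors, which bind a short AT-rich core in the minor groove and bend the DNA. It keeps neural stem cells in their state and is also made by astrocytes, the glial cells that clear glutamate and potassium around synapses and feed neurons. Regulatory elements of a gene often lie in its introns, far from its start, and many genes also have further starts inside the span of their longest transcript. Whole cortex mixes astrocytes, neurons, oligodendrocytes, microglia and vessels, and a ChIP-seq peak does not say which cell it came from. Fewer cells of a type and weaker binding per cell cannot be told apart, and a region inside a gene is not thereby shown to regulate that gene. The files hold peaks and no RNA, so the cell types of the tissue could not be checked against their markers.

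The bases under a member could be read only where it fell on a start listed by RefSeq, because the sequences used here reach from 250 bases before a start to 50 after it. Starts were not listed for every gene, and the gene holding the region had a listed start for 2072 members (79.2%). Of the members, 179 (6.84%) overlapped such a window, and for 155 of these the start belonged to the gene that holds the region. Below are the 8 strongest members of that kind for which at least 80 bases before the start were covered and held the SOX core, CATTGT or CTTTGT on either strand (44 of 127 such members). They are shown because they join a measured SOX2 region to the letters that SOX proteins are known to bind. Each line gives the covered bases before the start, 5′ to 3′ on the strand of the gene, with its GRCm38 (mm10) position, and capitals mark the SOX core.

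Ireb2 (chr9:54863587-54863754, plus strand): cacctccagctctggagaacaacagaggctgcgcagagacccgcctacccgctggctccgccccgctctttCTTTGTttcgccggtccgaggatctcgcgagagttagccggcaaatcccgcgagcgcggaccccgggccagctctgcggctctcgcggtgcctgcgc
Fam107a (chr14:8309788-8310029, minus strand): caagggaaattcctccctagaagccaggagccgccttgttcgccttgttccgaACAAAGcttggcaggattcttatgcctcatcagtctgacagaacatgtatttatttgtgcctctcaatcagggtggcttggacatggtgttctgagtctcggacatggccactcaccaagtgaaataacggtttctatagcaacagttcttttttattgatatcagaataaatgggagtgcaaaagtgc
Pou2f1 (chr1:165935060-165935198, minus strand): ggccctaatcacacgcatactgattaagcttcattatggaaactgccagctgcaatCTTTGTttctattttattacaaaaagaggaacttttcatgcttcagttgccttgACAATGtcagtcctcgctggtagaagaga
Zfp428 (chr7:24506914-24507082, plus strand): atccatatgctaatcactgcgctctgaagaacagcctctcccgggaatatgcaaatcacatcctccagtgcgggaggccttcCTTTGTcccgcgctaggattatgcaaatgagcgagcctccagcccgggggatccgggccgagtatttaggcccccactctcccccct
Rgs3 (chr4:62619422-62619528, plus strand): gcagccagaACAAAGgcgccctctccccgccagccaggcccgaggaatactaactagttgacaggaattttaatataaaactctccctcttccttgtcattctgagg
Tnrc18 (chr5:142817736-142817912, minus strand): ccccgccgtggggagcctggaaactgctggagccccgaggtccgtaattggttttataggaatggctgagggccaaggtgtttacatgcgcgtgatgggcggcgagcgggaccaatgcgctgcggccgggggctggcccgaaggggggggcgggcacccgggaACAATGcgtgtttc
Atp5g3 (chr2:73911327-73911496, minus strand): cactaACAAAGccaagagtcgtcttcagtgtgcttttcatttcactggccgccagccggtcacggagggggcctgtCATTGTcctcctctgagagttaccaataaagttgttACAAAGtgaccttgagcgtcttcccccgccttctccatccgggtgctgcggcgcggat
Cnr1 (chr4:33924499-33924643, plus strand): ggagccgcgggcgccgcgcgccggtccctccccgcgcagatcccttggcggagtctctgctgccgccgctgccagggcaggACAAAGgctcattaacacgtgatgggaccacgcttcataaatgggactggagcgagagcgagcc

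The region in Ireb2, which encodes an RNA-binding protein that regulates iron uptake and storage, was by far the strongest of these. It held 30.6, 36.3 and 32.5 normalized tags in IP libraries 1, 2 and 3, where normalized tags are the authors' number of sequenced fragments in a peak with each library scaled to a total of 10000000. Its single core began 97 bases before the listed start. Fam107a, an actin-binding protein gene that astrocytes express, followed with 19.8, 19.4 and 14.6, and its core began 197 bases before the start.

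Pou2f1 encodes OCT1, a POU factor that can bind DNA beside SOX proteins. Its region held 20.9, 17.2 and 15.3 normalized tags and 2 SOX cores. The region of Zfp428, a zinc finger gene, held 20.4, 16.9 and 12.2, and beside its SOX core the printed bases hold 2 copies of ATGCAAAT, the octamer that POU factors bind. Of these 8 sequences it was the only one with an octamer.

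Rgs3, which encodes a regulator of G-protein signalling, had 18.4, 14.5 and 12.2 normalized tags. Tnrc18 had 11.3, 15.1 and 11.0. Atp5g3, a subunit gene of the mitochondrial ATP synthase, had 13.2, 11.1 and 12.2 and the most cores of the 8, with 3. Cnr1, the cannabinoid receptor gene, had 11.8, 14.2 and 10.5. In 6 of the 8 regions, the exceptions being Ireb2 and Atp5g3, library 3 gave the lowest value.

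Windows of 300 bases overlapped by a member held a SOX core in 74 of 179 cases (41.3%, exact Clopper-Pearson 95% interval 34.0% to 48.9%, which covers counting error only). The interval treats windows as independent, although some came from the same gene, as in Hnrnph1, Nfyc and Ldb1. It is not a test against the other windows. All 32851 windows of the table held a SOX core in 28.6%, and the 1176 windows overlapped by reproducible regions at gene ends in 30.8%. The base composition was not the same, with a median GC content of 58.7% under members, 60.3% at gene ends and 52.7% over all windows. Within the 179 windows, the bases covered by the members held 2.32 SOX cores per kb (67 in 28909 bases), and the bases not covered held 0.968 (24 in 24791).

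Other motifs were counted in the same windows on both strands. TTGGCA, part of the NFI site, stood in 21.2% of windows under members against 14.1% of all windows and 11.7% at gene ends. GTTGCC, part of the RFX site, stood in 19.0% against 12.5% and 14.8%. The octamer was rare, with 3.35% (6 windows) against 1.74% and 2.21%. The GC box GGGCGG stood in 54.7% against 35.7% and 65.4%. The E-box CAGCTG (15.6% against 16.3%, and 153 of 1176 windows at gene ends) and CCACNAG, part of the CTCF site (14.5% against 15.3% and 14.3%), were close to all windows. The AP-1 site TGANTCA stood in 4.47% against 7.81% of all windows and 4.00% at gene ends. These shares are descriptions of letters, with no test, and a match is not a shown binding site.

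Per Mb, members were denser beside listed starts than elsewhere inside genes. Of 2524 members on chromosomes that the table covers, 264 (10.5%) had their centre within 1 kb of a listed start, although such sequence makes up 1.80% of the gene interior. That is 26.5 members per Mb near listed starts and 4.16 per Mb elsewhere, which can include sequence near starts that are not listed. Gene interior means here the sequence that meets the position part of the rule. Ireb2 shows the case, since its region lay 1.01 kb from an end of the gene span and 0.083 kb from a listed start. The strength near listed starts and elsewhere differed by less than the spread between libraries. The median near them was 7.98, 8.62 and 6.69 normalized tags in the 3 libraries against 8.26, 8.00 and 6.93 for the others. The mean log2 difference was 0.00 ± 0.09 (SD, n = 3, exact two-sided sign-flip permutation test over the libraries, p = 1.00). The smallest p that 3 libraries allow is 0.25.

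Members had a median strength of 7.82 normalized tags, averaged over libraries first, with the middle of the range from 6.01 to 10.9 (quartiles) and the extremes at 3.71 and 39.6. Only 95 of them (3.63%) reached 20 normalized tags and 16 reached 30. The enrichment over the input, the authors' ratio, had a median of 15.4-fold, and 574 members (21.9%) were at least 20-fold in each library. For 498 members the input stood at its listed minimum of 0.5 tags, and there the fold rests on that minimum. The median and the 574 can include such members, and how many of the 574 were of this kind was not counted. The medians by library were 8.26, 8.31 and 6.93 normalized tags, and library 3 was below both others in 1608 members (61.4%). This was not particular to members. Over all peaks of a library the medians were 6.06, 6.16 and 5.25, and 1.36%, 1.35% and 1.06% of the tags lay in peaks. The SD over the 3 libraries was 16.9% of the mean in the median member. Only 66 members (2.52%) lacked any base that the peaks of the 3 libraries shared.

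Members and the 1540 reproducible regions inside longer genes differed in strength by less than the spread between libraries. The difference in median log2 normalized tags was 0.00, 0.05 and 0.00 in the 3 libraries, a mean of 0.02 ± 0.03 (SD, n = 3, exact sign-flip permutation test, p = 1.00). Against the 1847 reproducible regions at gene ends, the members were higher in 3 of 3 libraries, by 0.15, 0.11 and 0.10 on the log2 scale for tags (mean 0.12 ± 0.03, p = 0.25 by the same exact permutation test). For the fold over input this difference was 0.19 ± 0.04 (p = 0.25, exact permutation test), and 0.05 when peaks had to reach 8-fold. A p of 0.25 is the smallest this design can give, so neither difference could pass a threshold of 0.05. Reproducible regions outside genes also had higher medians than those at gene ends (7.43, 7.69 and 6.45 tags in the 3 libraries). They had 8.26, 8.00 and 6.93 up to 50 kb from a gene, and 8.53, 8.31 and 7.16 farther away. Being above gene ends was thus not particular to members.

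Members were ranked by normalized tags within each library, and the order below follows the mean of these ranks. The strongest member of all lay inside Fam13c, on chromosome 10 from 70485087 to 70485255, 45.2 kb from the gene's start. It held 39.6, 45.2 and 33.9 normalized tags in libraries 1, 2 and 3. The member in Sparcl1, which encodes a synapse-organising protein that astrocytes secrete, lay on chromosome 5 from 104110527 to 104110728. It held 44.0, 40.9 and 28.2 tags. Fgfrl1, an FGF receptor that lacks the kinase domain, had 39.9, 36.3 and 31.0 tags at a region on chromosome 5 from 108697413 to 108697600.

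The next genes in this account encode membrane proteins. Ttyh1, a membrane protein gene of the tweety family, had 42.7, 35.4 and 31.5 normalized tags on chromosome 7 from 4123688 to 4123878. Kcnj10, the inward potassium channel Kir4.1 of astrocytes, had 35.2, 37.5 and 23.4 on chromosome 1 from 172349953 to 172350132, and its input stood at the listed minimum of 0.5 tags, so that no fold is given. Slc7a11, the cystine and glutamate exchanger, had 30.6, 31.7 and 26.0. In all 3 of these library 3 was lowest, and no value of the 3 genes fell under 23.

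Other genes among the 20 strongest act on the cytoskeleton and on membrane traffic. Arhgef10l, a guanine nucleotide exchange factor gene, varied most among these 20, with 39.6, 46.2 and 26.7 normalized tags (SD 9.92). Mical2, which oxidises actin, had 41.0, 33.9 and 28.2, and Amotl2, a junction protein that binds YAP, had 29.2, 31.1 and 25.6. Sh3gl2, the endophilin of synaptic vesicle recycling, had 41.8, 31.4 and 30.8, but with 17.2-fold, 14.8-fold and 12.7-fold it had the lowest enrichment over input of the 20. Syt11, a synaptotagmin gene, had 36.3, 31.1 and 28.4, and Ap4s1, a subunit gene of the AP-4 coat, had 35.2, 36.9 and 23.2.

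The remaining genes of this group have other roles. Sfxn5, a mitochondrial carrier gene of the sideroflexin family, was the steadiest, with 35.8, 33.5 and 32.0 normalized tags (SD 1.91). Alpk1, an innate immune kinase, had 33.6, 43.1 and 28.2, Irf2, an interferon regulatory factor, 32.8, 33.5 and 26.5, and Fancc, a DNA repair gene of the Fanconi pathway, 30.8, 32.3 and 26.0. Pamr1 had 38.8, 40.6 and 26.0, Mmd2 36.3, 33.5 and 23.4, and Nxn, which encodes nucleoredoxin, 30.8, 27.7 and 26.7. Distances from an end ran from 1.01 kb in Ireb2 to 57.3 kb in Slc7a11. The table of genes used here gives no exons, so exon and intron could not be told apart.

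**Figure D1:**
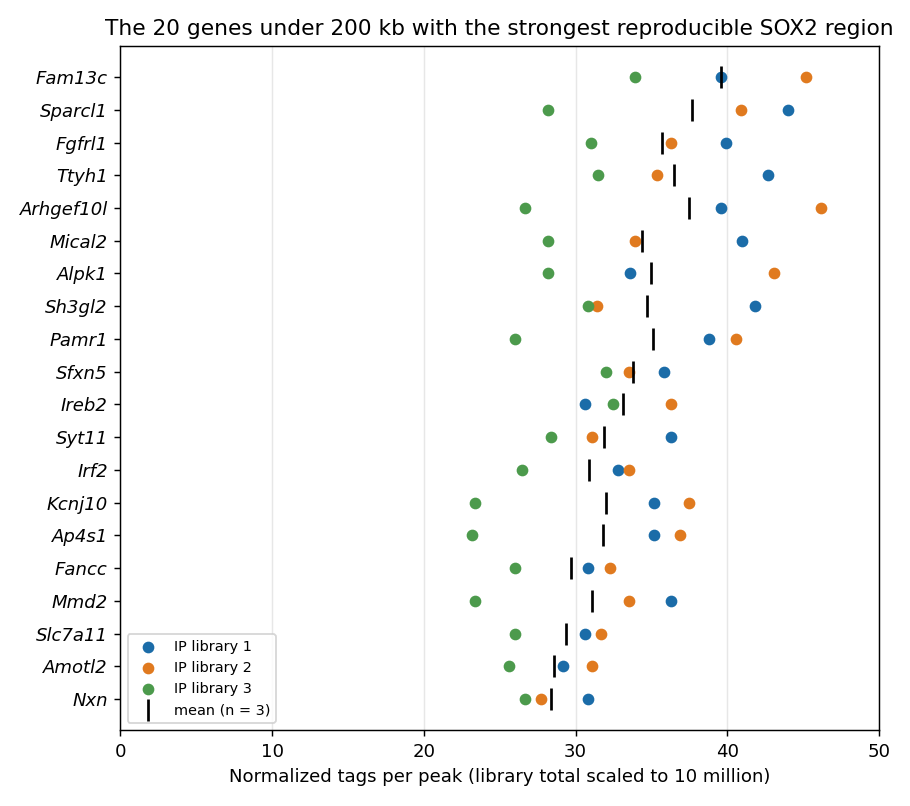
Normalized tags (x axis, library total scaled to 10000000) of the strongest member in the 20 genes with the best mean rank over libraries, with 1 point per IP library and a bar at the mean. Library 3 is the lowest of the 3 in every gene but Ireb2, where library 1 is lowest with 30.6.

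Longer genes carried a member more often, while the number per Mb of sequence changed little with gene span up to 100 kb. Per Mb of gene interior there were 4.32 members in genes under 10 kb, 4.27 at 10 to 25 kb, 4.25 at 25 to 50 kb, 4.40 at 50 to 100 kb and 5.10 at 100 to 200 kb. The share of genes with at least 1 member was 1.47%, 5.62%, 11.3%, 21.0% and 38.2% in the same bins. Over all 17728 genes under 200 kb with some interior sequence, 1838 (10.4%) carried a member. Genes with a member had a median span of 60.0 kb, against 20.3 kb over all of these genes.

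The lowest density of all bins of gene span was in the longest genes. Genes of 200 to 500 kb held 4.42 reproducible regions per Mb, and genes of 500 kb or more held 2.83. Taken as peaks of single libraries, genes under 200 kb held 8.72, 8.61 and 7.77 per Mb and longer genes 7.36, 7.22 and 6.70. The mean log2 ratio was 0.24 ± 0.02 (SD, n = 3), higher in 3 of 3 libraries (exact sign-flip permutation test, p = 0.25, the smallest possible). Genes of 200 to 500 kb alone held 8.68, 8.56 and 7.93 peaks per Mb, close to genes under 200 kb. Genes of 500 kb or more held 5.77, 5.61 and 5.21, so the higher density was not particular to genes under 200 kb. The median strength lay between 7.65 and 8.08 normalized tags in each of the 5 bins under 200 kb.

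**Figure D2:**
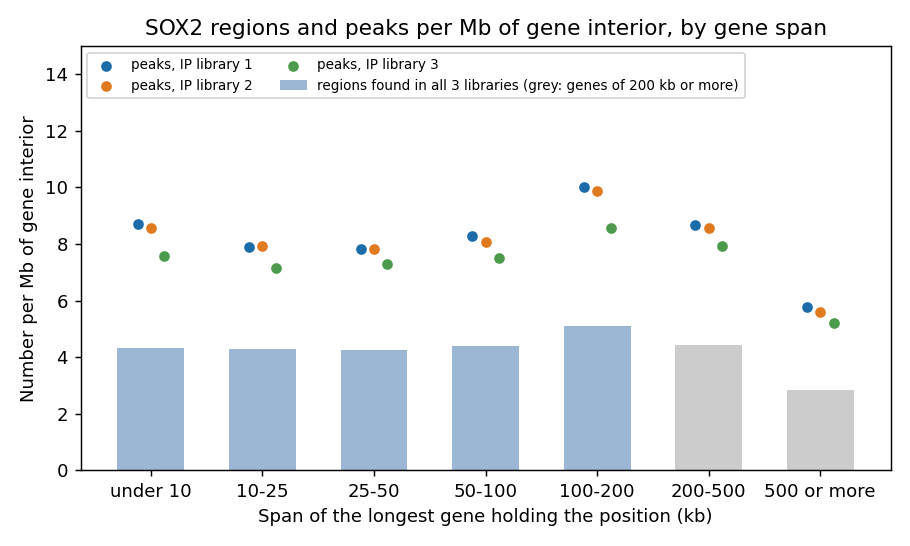
Regions found in all 3 libraries (bars) and peaks of each IP library (points) per Mb of gene interior (y axis) by the span of the longest gene holding the position (x axis, kb). The blue bars lie between 4.25 and 5.10, and the lowest bar, at 2.83, belongs to genes of 500 kb or more.

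Along the genes, the density of members was highest toward the start and lowest toward the far end. The strand was known for the genes of 2072 members (79.2%), whose median distance from the gene start was 25.9 kb. Cut in 5 equal parts from the start, these genes held 5.61, 5.09, 4.53, 4.12 and 3.38 members per Mb of interior. Peaks of single libraries gave 11.8, 11.3 and 9.78 per Mb in the part that holds the start and 6.38, 6.46 and 6.31 in the part at the far end, a mean log2 ratio of 0.78 ± 0.13 (SD, n = 3). The ratio was above 0 in 3 of 3 libraries (exact sign-flip permutation test, p = 0.25, the smallest possible).

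Away from listed starts the slope was smaller. With only sequence over 1 kb from each of them, an alternative added with the values known, the parts held 4.50, 4.47, 4.22, 3.91 and 3.25 members per Mb, and the log2 ratio of peaks was 0.48 ± 0.12 (n = 3, p = 0.25, exact permutation test). By distance, the density was 9.24 members per Mb at 1 to 2 kb from the gene start, 5.36 at 2 to 5 kb and 4.40 at 5 to 10 kb, and it stayed between 4.11 and 4.75 from 10 to 200 kb.

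**Figure D3:**
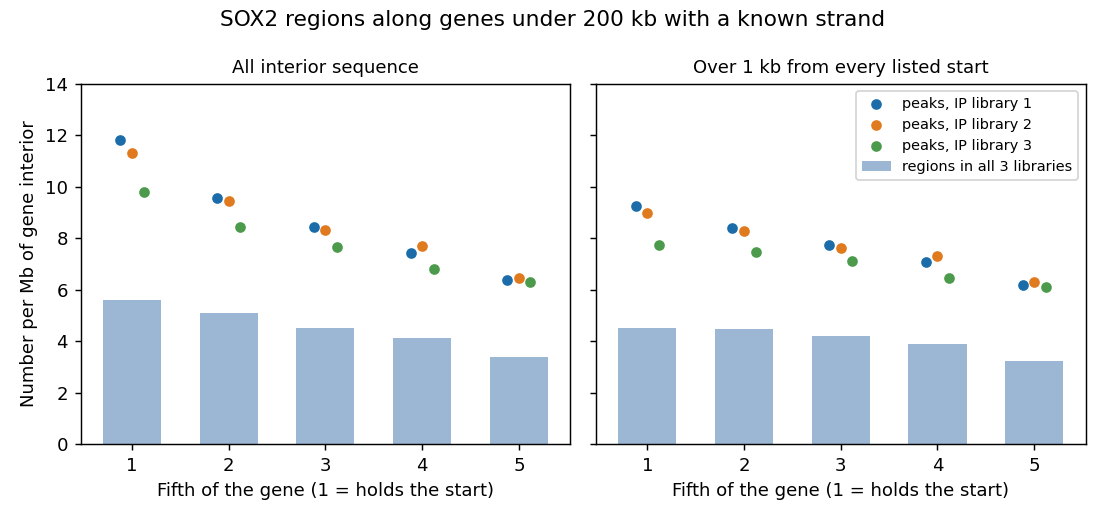
Regions in all 3 libraries (bars) and peaks of each IP library (points) per Mb of gene interior (y axis) in 5 equal parts of genes under 200 kb (x axis, 1 holds the start), over all interior sequence (left) and over 1 kb from every listed start (right). The bars fall from 5.61 to 3.38 on the left and from 4.50 to 3.25 on the right.

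Most genes with a member held only 1. Of the 1838 genes, 1338 held 1 member, 330 held 2 and 170 held 3 or more, so that 1279 members (48.9%) shared a gene with another. Neighbouring members of a gene were a median of 13.8 kb apart, and 78 of 779 such pairs (10.0%) lay within 2 kb. No background was counted for sharing or spacing, so these values do not show that members cluster. Genes with a member also had a reproducible region within 1 kb of an end slightly more often, 229 of 1838 (12.5%) against 1685 of 15890 (10.6%) without a member, and by bins of gene span the shares were 9.65% to 16.1% against 7.45% to 11.6%.

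Ptn, which encodes the growth factor pleiotrophin that glia secrete, carried the most members, 9 over a span of 95.3 kb. The strongest of them, 54.9 kb from the start, held 20.1, 19.4 and 18.6 normalized tags, with little spread between libraries (SD 0.751). The other 8 had means of 5.28 to 10.0 and were spread from 1.63 kb to 86.9 kb from the start.

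Ddah1, whose product breaks down methylated arginines that inhibit nitric oxide synthase, had 7 members. Its strongest pair lay near the far end of the gene, at 127 kb and 132 kb from the start, with 16.8, 15.4 and 14.3 normalized tags and with 24.5, 19.7 and 15.0. The stronger of this pair covered the listed start of Gm35187, a long noncoding RNA gene. Gpm6b, a membrane glycoprotein gene of the proteolipid family, also had 7, the strongest at 69.1 kb with 12.9, 15.1 and 11.7. Members of Gpm6b did not exceed a mean of 13.2, so this gene had many regions and no very strong one.

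Another 8 genes held 6 members each. They were Wwc1 (KIBRA of the Hippo pathway), Myo10 (the myosin of filopodia), Notch1, Cuedc1, Garem1 (an adaptor in ERK signalling), Afg1l, Prex1 (a Rac exchange factor) and Tcf7l2, and they were named after their counts were seen. Notch1 had these 6 within 43.9 kb of interior, or 137 per Mb, the densest of the 11 genes named for their number of members.

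**Figure D4:**
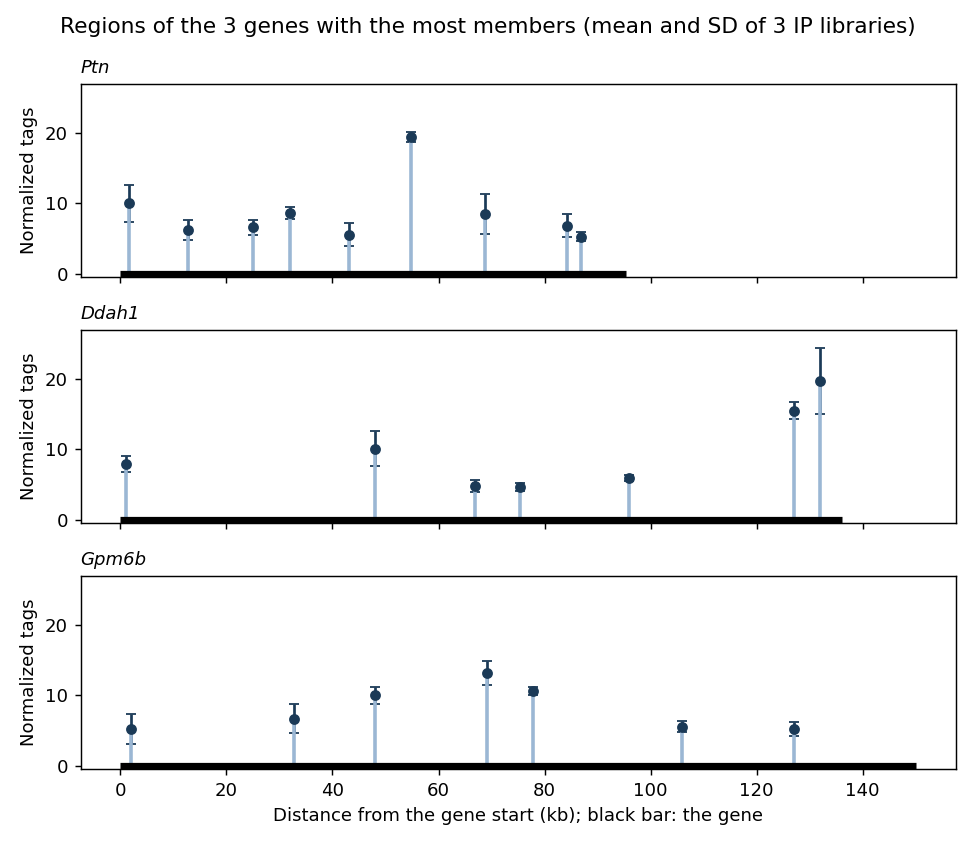
Normalized tags (y axis, mean and SD of 3 IP libraries) of each member against its distance from the gene start (x axis, kb) in Ptn, Ddah1 and Gpm6b, with the gene as a black bar. Ptn has 1 member at 19.4 amid weaker ones, Ddah1 has its 2 strongest near the far end, and Gpm6b has its strongest, 13.2, in the middle.

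Genes of 17 lists were then counted. The lists were chosen with earlier results of these data known, so a share above that of all genes may partly reflect the choice. A list's genes could hold a member only where the gene spans under 200 kb and has interior sequence, and the counts below are over those. The comparison for each is 10.4% of all such genes, with a median of 8.40 normalized tags for the strongest member of a gene and 4.58 members per Mb. Alternatives are given where they moved a count by over 1.5 times, and for some changes of order. Lists differ in gene span, so members per Mb of interior is given beside the count. Some genes stand in more than 1 list, among them Sparcl1, Apoe, Bcan and Rorb.

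Astrocyte identity genes carried members in 16 of 29 (55.2%), although their median span was short, 13.1 kb. They held 35.5 members per Mb, and the median of their strongest members was 13.9 normalized tags. Beside Sparcl1, Ttyh1 and Kcnj10, the list held Mlc1, which encodes a protein of the end-feet that astrocytes set on vessels, with 32.2, 27.1 and 21.7, and the glutamate transporter gene Slc1a2, with 19.8, 16.0 and 16.0. Counting only positions over 5 kb from every gene end, 7 of 18 (38.9%) genes had a member, against 11.2% of all genes.

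Genes of glial transport and metabolism had members in 17 of 28 (60.7%), with 25.1 members per Mb. The share was 50.0% with peaks of at least 8-fold, where astrocyte identity genes had 51.7%, and 50.0% over 5 kb from gene ends. Slc7a11 led it. Abat, which breaks down the transmitter GABA, had 23.1, 23.7 and 20.8 normalized tags, and Phgdh, which starts serine synthesis, had 20.6, 20.0 and 16.2. In Abat and Phgdh library 3 gave the lowest value and libraries 1 and 2 differed by less than 1 tag. A weaker member was found in the GABA transporter gene Slc6a11 (9.63, 15.1 and 11.9).

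Lists of signalling pathways had shares of 23.1% to 46.2%. Over 5 kb from gene ends, Wnt and BMP and TGF-beta genes each had 12 of 23 (52.2%), above both glial lists. Wnt genes had members in 12 of 30 (40.0%) at 12.7 per Mb, led by the transcription factor gene Tcf7l1 (30.0, 28.9 and 25.8 normalized tags), the receptor gene Lgr4 (26.1, 22.8 and 14.8) and Apc, of the complex that degrades beta-catenin (22.3, 18.5 and 18.4). BMP and TGF-beta genes had 12 of 26 (46.2%) at 9.07 per Mb, led by the co-receptor gene Tgfbr3 (16.0, 24.3 and 19.1), the receptor gene Bmpr2 (11.6, 14.2 and 11.2) and the inhibitor Smad6 (10.5, 10.8 and 12.9).

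FGF, EGF and ERK feedback genes had 9 of 28 (32.1%) at 12.1 per Mb, led by Fgfrl1, by Etv5, a transcription factor that FGF signals induce (23.7, 30.2 and 27.7 normalized tags), and by Fgfr1 (22.0, 16.0 and 17.2). Notch genes had 6 of 26 (23.1%) at 17.5 per Mb. They were led by Lfng, which modifies Notch receptors (20.9, 20.3 and 13.9), by Notch1, whose member of best mean rank had 15.4, 15.7 and 15.0 and another a higher mean but more spread (20.1, 13.8 and 13.9), and by the protease gene Adam10 (14.0, 13.2 and 10.5). Hedgehog genes had 4 of 16 at 10.8 per Mb, with the receptor gene Ptch1 (27.8, 23.1 and 21.7), the co-receptor gene Boc (12.7, 16.0 and 15.0) and Gpr161 (4.68, 7.39 and 5.49) leading.

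Neural stem and progenitor factors had 6 of 23 (26.1%) but 29.3 members per Mb, since those 6 genes held 17 members. Over 5 kb from gene ends the list had 4 of 9 (44.4%), above the 38.9% of astrocyte identity genes. Msi1, an RNA-binding protein of neural stem cells, had 27.5, 28.3 and 28.9 normalized tags at its strongest, a member in which library 3 was the highest. Nfix, a gliogenic factor of the NFI family, had 5 members, the strongest with 23.4, 20.9 and 19.3, and Rfx4 had 14.0, 17.2 and 15.3.

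Circadian clock genes had 8 of 21 (38.1%) at 11.2 per Mb, with the repressor gene Cry2 (18.2, 11.1 and 14.6), the nuclear receptor gene Nr1d1 (10.5, 12.3 and 7.88) and Tef (9.36, 10.2 and 10.7) leading. Over 5 kb from gene ends the clock list had 7 of 16 (43.8%), also above the 38.9% of astrocyte identity genes.

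Lipid synthesis and export genes had 6 of 29 (20.7%) at 10.6 per Mb, and 3 of 29 (10.3%, against 7.03% of all genes) with peaks of at least 8-fold. Srebf2, the master regulator of cholesterol synthesis, had 18.4, 18.2 and 15.3 normalized tags, Fdft1, the squalene synthase gene, 15.1, 17.2 and 13.9, and Apoe, the main lipid carrier of astrocytes, 17.3, 11.4 and 8.12. In Apoe the value of library 1 was over 2 times that of library 3, and the member covered a listed start of Apoe itself. Extracellular matrix and synapse factors had 5 of 25 (20.0%) at 8.19 per Mb, and 3 of 22 (13.6%) over 5 kb from gene ends. They included Mertk, a receptor for engulfing synapses and debris (22.6, 17.9 and 15.3), and Hapln1, a link protein of perineuronal nets (19.3, 16.9 and 17.4), after Sparcl1.

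Markers of other cell types had shares of 3.85% to 14.3%, around the 10.4% of all genes, and 2.57 to 4.87 members per Mb against 4.58. Neuron genes had 2 of 25 (8.00%) at 2.79 per Mb, Rorb (11.6, 8.00 and 7.64 normalized tags) and Slc17a6 (4.13, 4.31 and 3.82). Oligodendrocyte lineage genes had 1 of 26 (3.85%) at 2.57 per Mb, Nkx2-2 (12.1, 9.85 and 9.79), and 2 of 26 without library 2. Microglia genes had 2 of 20 (10.0%) at 4.87 per Mb, Sall1 (13.5, 9.54 and 6.21) and Ly86 (7.71, 7.39 and 5.25), and 1 of 12 over 5 kb from gene ends. Endothelial and mural genes had 3 of 21 (14.3%), a share above that of all genes, but a density below theirs, 3.34 per Mb. These were Pecam1 (6.61, 5.23 and 5.49), Pdgfrb (7.98, 7.08 and 4.78) and Vwf (5.23, 5.23 and 5.73). Apart from Sall1, Rorb and Nkx2-2, none of these members passed 8 normalized tags in any library.

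Genes that rise in reactive astrocytes had members in 2 of 24 (8.33%) at 3.62 per Mb, Bcan, a brain proteoglycan (11.0, 9.54 and 6.45 normalized tags), and S1pr3, a receptor for sphingosine phosphate (7.71, 7.08 and 7.88). The S1pr3 member covered the listed start of Gm32834, a long noncoding RNA gene. Without library 1 the count was 4 of 24 (16.7%), against 11.5% of all genes, with peaks of at least 8-fold 1 of 24, and over 5 kb from gene ends 0 of 13. Hepatocyte genes, a list from another tissue, had 1 of 29 (3.45%) at 1.85 per Mb, Ttr, which the choroid plexus also makes (14.6, 14.5 and 12.4), and 0 of 20 over 5 kb from gene ends. When peaks had to reach 8-fold over the input, neuron genes had 0 of 25 against 7.03% of all genes. These counts carry no test, and nothing here shows that a list differs from another.

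**Figure D5:**
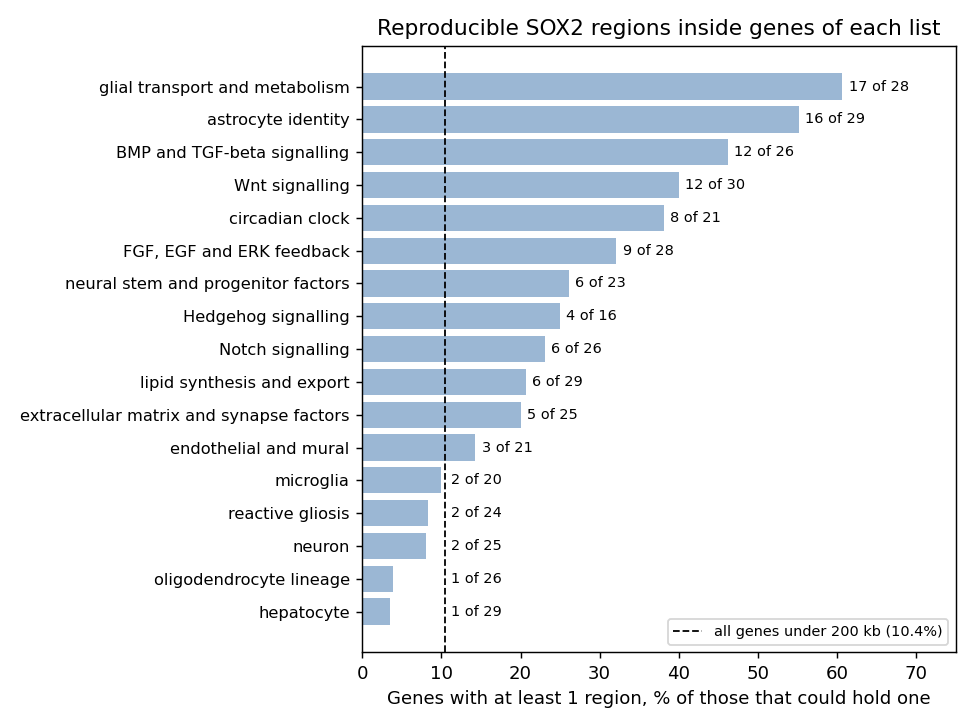
Share of the genes of each list that carry at least 1 member, of those that could hold one (x axis, percent), with counts beside the bars and the 10.4% of all genes under 200 kb as a broken line. Glial transport and astrocyte identity genes stand at 60.7% and 55.2%, and hepatocyte and oligodendrocyte genes at 3.45% and 3.85%. The lists were chosen with earlier results of these data known.

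Just inside the distance limit lay members of Ggact at 1.0005 kb from an end (14.3, 9.54 and 7.88 normalized tags), Hbp1 at 1.0050 kb (12.1, 12.6 and 11.0) and Kcna2 at 1.0085 kb (16.0, 15.7 and 13.4). Just outside lay regions in Dclk2 at 0.9995 kb (22.0, 12.9 and 15.3), Crb2 at 0.9990 kb (6.88, 4.31 and 4.54) and Npm1 at 0.9985 kb (9.63, 9.85 and 8.12). At the limit of span, the last members were in Sergef, which spans 199.7 kb (means of 6.57 and 5.93), and Morc1, also 199.7 kb (4.18). The first regions left out were in Pbx3, at 200.6 kb (means of 5.02 and 11.8), and Ppp1r12b, at 201.3 kb (9.31).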

How the data were processed

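Per the submitters' processing notes, Bowtie 1.0.0, HOMER 4.7 and the mm10 build were used. Peaks were called by the authors library by library against the input, per the file headers. The thresholds were 4-fold over the input, 4-fold over the local 10 kb, a false discovery rate of 0.001 and a p-value of 0.0001 by Poisson. Normalized tags are the authors' deposited signal per peak, and the fold is the authors' ratio over the input, whose tags are never listed under 0.5. The authors' deposited score counts tags under a cap per bp of 1 in libraries 1 and 2 and of 2 in library 3. The deposited focus ratio (a fraction of each peak's tags) and the authors' p-values of single peaks were not used for results. The deposited tag counts of the libraries, per the file headers, were 36330529, 32492927 and 41875666, with 17730, 17628 and 15891 peaks, and a peak needed 14, 13 and 16 tags.

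The strongest peak of a library stands for a region. Genes and sequences came from RefSeq tables of GRCm38.p6 (the same coordinates as mm10), which list 21883 genes that encode proteins and 32851 promoter windows of 27025 genes. These windows gave strands and starts. The genome sequence was not used here, so the planned motif search over all members was not run. Comparisons used exact sign-flip permutation tests over the 3 libraries, two-sided. Placing and testing were checked on simulated data. 1 of the 18 gene lists and a few genes are not reported here. Members, lists and rules were chosen with earlier results of these data known. Named genes are the 20 whose strongest member has the best mean rank of normalized tags over the libraries, the 3 with the most members, up to 3 per list (further list genes were picked with their values known) and the 3 nearest each edge of the rule. Figures were drawn with matplotlib 3.10.9, and values were computed with scipy 1.17.1, pandas 2.3.3 and numpy 2.4.6 under Python 3.11.15.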

Additional observations from a re-analysis of the deposited data

How the results depend on the processing

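With regions of at least 2 libraries there were 4140 members, with a median of 6.47 normalized tags and 13.2-fold, 7.25 per Mb and 292 on promoter windows. With peaks of at least 8-fold there were 1621, with 8.97 tags, 22.3-fold, 2.84 per Mb and 102 on windows. With the stronger 0.5 of peaks by score there were 1702, with 9.67 tags, 17.2-fold, 2.98 per Mb and 115 on windows. Genes under 100 kb held 1649. Over 5 kb from gene ends, there were 7 astrocyte genes with a member and 81 windows. With peaks overlapping by 0.5 of both lengths there were 3.57 members per Mb, and leaving out 1 library gave 5.22 to 5.75. Each alternative counts a different set of peaks, positions or genes, and the cause of each shift was not tested.

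The log2 tag difference from regions in longer genes turned to -0.04 at 8-fold and -0.02 with the stronger peaks. The fold difference from them, -0.01, turned to 0.01 to 0.03 without 1 library, 0.01 with at least 2 libraries, 0.01 with a base common to all 3 and 0.02 over 5 kb from gene ends, and the cause was not tested. The differences from gene ends kept their sign in every alternative run, but at 8-fold that in fold was 0.05 in place of 0.19. The IP libraries could not each be paired with an input of their own, because there was only 1 input library. The permutation tests compared values within each IP library. The search for the SOX core in all members was not run. Depth limits the weakest members, since a peak needed 14, 13 and 16 tags in the 3 libraries.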

Other observations

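A few members lay on or beside microRNA genes listed by RefSeq. Of the 2617 members, 8 were within 1 kb of a hairpin. The share of all gene interior that lies so close to a hairpin was not counted. The number therefore does not show that members favour such sites. The member inside Man1c1, on chromosome 4 from 134567741 to 134567982, overlapped the hairpin of Mir6403 and held 12.1, 16.0 and 9.07 normalized tags in IP libraries 1, 2 and 3. The member inside Epha4, a receptor that guides axons, lay 75 bp from Mir6352 and held 14.9, 11.7 and 8.36. The strongest of the 8, inside Tspan15 and 353 bp from Mir7662, held 33.0, 25.9 and 20.1. Library 3 was the lowest in each of these 3.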
